A study of Zea mays with 318 samples.

Results

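Sucrose synthase cleaves sucrose with UDP into UDP-glucose and fructose, and so opens imported sugar to cell wall and starch synthesis. In maize, Shrunken1 (Sh1) encodes the main endosperm isoform, and its loss collapses the mature kernel. Sus1 encodes a broadly expressed isoform, Sus2 encodes a further member of the same family, and Sh1 is also among the maize seedling genes known to be induced together with alcohol dehydrogenase under low oxygen. The 3 genes described here, GRMZM2G089713 (Sh1), GRMZM2G152908 (Sus1) and GRMZM2G318780 (Sus2), were chosen by identifier out of 39625 annotated genes, and all 3 passed the filter on low counts. Their identifiers were paired with these names by the RefSeq gene table of maize.

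Transcript levels were measured by RNA-seq in whole kernels of 318 maize inbred lines collected 5 days after pollination (DAP). Each line was 1 library, so every line has a single value and every SD below is the spread across lines. The study describes self-pollinated ears of 1 field season and kernels pooled over 3 field blocks for the lines of its mapping table, and 36 of the 318 lines are not in that table (10 CIMBL, 7 CML, 6 GEMS and 13 no-prefix lines). By the prefix of the line name, 98 lines were CIMBL, 40 were CML, 46 were GEMS and the rest had none of these prefixes (no-prefix lines). No line was treated. The study describes its panel as tropical, subtropical and temperate material, the labels do not say which line is which, and the name is therefore only a name. Each FPKM value is a count of uniquely aligned fragments scaled by the authors for gene length and library size, and is used wherever levels of different genes are set side by side.

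Total counts lay between 6100624 and 29629212 per line (median 13625467). Pearson's r of each line with the mean profile of the 1000 highest genes, called profile r here, ranged between 0.416 and 0.921 (median 0.829), and 12 lines were below 0.6 (2 CIMBL, 2 CML, 1 GEMS and 7 no-prefix lines). No 2 lines agreed within sampling noise: the closest, 177 and ZHENG58, still differed by 2.99 times the variance that counting gives, and all 318 lines were counted separately. As checks of the tissue, the 3 markers of endosperm transfer cells (Betl1, Betl2, Meg1) and the pericarp pigment regulator P1 had a median of 0 FPKM, as had 2 of the 3 markers of embryo-surrounding endosperm, while Esr2 had a median of 0.0857 FPKM. These markers of transfer cells and embryo-surrounding endosperm were thus at or near 0 in most 5-DAP kernels. Reads that did not align uniquely were not counted, so their levels may be too low. Mn1 (Miniature1, the endosperm cell wall invertase), which was not among these markers, had a median of 39.2 FPKM. In such bulk samples, fewer cells of a type and less RNA per cell cannot be told apart.

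Among the 3 genes, Sus1 had the most transcript in these kernels, Sh1 was intermediate and Sus2 was low. Other sucrose synthase genes could not be looked up and were not examined, so this order and the shares below hold among these 3 only. Sus1 ranged between 61.7 and 834 FPKM, with a median of 232.4 FPKM and a mean of 269 ± 131.5 FPKM (SD, n = 318 lines). Sh1 ranged between 9.71 and 258 FPKM, with a median of 46.99 FPKM and a mean of 52.5 ± 28.4 FPKM (SD, n = 318 lines). Sus2 ranged between 0.314 and 117.4 FPKM, with a median of 10.5 FPKM and a mean of 14.1 ± 13.1 FPKM (SD, n = 318 lines). Ordered by mean FPKM over all 39625 genes, Sus1 was number 253, Sh1 number 2208 and Sus2 number 8269. The levels rested on a median of 12218 reads for Sus1, 2727 reads for Sh1 and 475.5 reads for Sus2, and no line was without reads of any of the 3 genes.

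The order of the 3 genes was nearly the same in every line, although their ranges over lines overlapped. Sus1 exceeded Sh1 in 317 of 318 lines and exceeded Sus2 in 318. The exception was DAN599, with 127.99 FPKM of Sh1 and 117.5 FPKM of Sus1, a line with a profile r of 0.416, the lowest of all. Sh1 exceeded Sus2 in 306 lines, and Sus2 exceeded Sh1 in the other 12. The median Sus1 to Sh1 ratio was 5.31 (quartiles 3.36 and 7.60), with 0.918 in DAN599 and 27.1 in K10 at its ends. The Sus1 to Sus2 ratio had a median of 22.7 and ran between 1.40 in CIMBL6 and 908 in K10. The Sh1 to Sus2 ratio had a median of 4.72, with 0.408 in CML433 and 71.5 in GEMS51 at its ends.

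**Figure D1:**
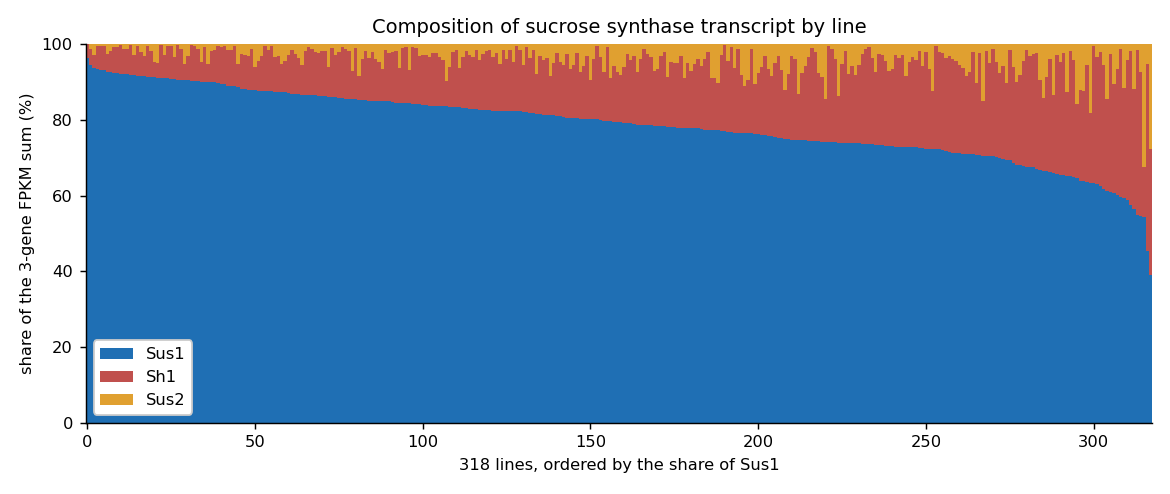
Share of Sus1 (blue), Sh1 (red) and Sus2 (yellow) in the summed FPKM of the 3 genes, in percent, with 1 bar for each of the 318 lines ordered by the share of Sus1. Sus1 makes up most of the bar in nearly every line (median 79.3%), and Sh1 and Sus2 fill the rest in proportions that vary between neighbouring bars.

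As shares of the summed FPKM of the 3 genes, Sus1 had a median of 79.3% (lowest 38.9%, highest 96.3%), Sh1 of 15.1% (3.51% to 49.3%) and Sus2 of 3.47% (0.106% to 32.5%). The plot of these shares by line shows that a low share of Sus1 was filled by Sh1 in some lines and by Sus2 in others. The sum itself ranged between 101.2 and 904 FPKM with a median of 296 FPKM. Its coefficient of variation (CV, the SD over the mean) was 43.04%, below that of each of the 3 genes.

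Sus2 was by far the most variable of the 3. Its CV over lines was 92.7%, which was above 92.6% of the 4474 genes of similar level, whose median CV was 34.2%. Sh1 had a CV of 54.1%, above 76.4% of 1830 genes of similar level, and Sus1 a CV of 48.9%, above 65.6% of the genes at its level. Counting error contributed little, with a CV of 6.01% for Sus2, 2.10% for Sh1 and 0.944% for Sus1. The ratio of the highest to the lowest line was 374 for Sus2, against 26.6 for Sh1 and 13.5 for Sus1. Between the 90th and the 10th percentile of lines the ratio was 10.9 for Sus2, 3.57 for Sh1 and 3.27 for Sus1.

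Only Sus2 had lines below 0.2 of its median. It was that low in 23 lines (under 2.09 FPKM), and no line was that low for Sh1 or for Sus1. The lowest Sh1 line, DONG46 with 9.71 FPKM, was just above the Sh1 cutoff of 9.40 FPKM. Below 0.5 of the median were 69 lines for Sus2, 24 for Sh1 and 18 for Sus1. How many other genes have such lines was not counted. All lines were mapped to B73, so little transcript and poor mapping of a differing allele cannot be told apart. The 23 lines came from every name series, with 9 of 98 CIMBL, 3 of 40 CML, 3 of 46 GEMS and 8 no-prefix lines. The lowest was K10, with 0.314 FPKM from 19 reads (95% exact Poisson interval 0.189 to 0.490 FPKM, counting error only), followed by CML69 with 0.757 FPKM and HYS with 0.881 FPKM. The other 20 were CIMBL82, CIMBL68, CIMBL115, CIMBL63, CIMBL111, CIMBL71, CIMBL147, CIMBL27, CIMBL52, CML32, CML162, GEMS51, GEMS44, GEMS54, LK11, SHEN5003, DONG237, BZN, QI205 and CHANG3, all between 0.894 and 2.00 FPKM. Low Sus2 did not go with a single state of the other genes: among these 23 lines Sus1 ran between 75.4 FPKM in BZN and 423 FPKM in CIMBL71, and Sh1 between 10.5 FPKM in K10 and 69.5 FPKM in GEMS51. At the other end, Sus2 was more than double its median in 68 lines and more than 5 times its median in 4, namely CML433 (117.4 FPKM), CIMBL3 (89.2 FPKM), CML165 (70.3 FPKM) and CIMBL6 (60.6 FPKM).

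The 3 lowest and the 3 highest lines of Sh1 were not those of Sus1. Sh1 was lowest in DONG46 (9.71 FPKM), K10 (10.5 FPKM) and HYS (11.5 FPKM), and 2 of these, K10 and HYS, were also among the 3 lines with least Sus2. Sh1 was highest in a no-prefix line with a profile r of 0.493 (258 FPKM), in B113 (150.99 FPKM) and in YE478 (138.4 FPKM). Sus1 was lowest in GEMS58 (61.7 FPKM), BZN (75.4 FPKM) and CML139 (78.5 FPKM), and highest in CHENG698 (834 FPKM), CIMBL119 (727 FPKM) and CHUAN48-2 (705 FPKM). CHENG698 had 64.1 FPKM of Sh1 and 6.24 FPKM of Sus2, and the line with the highest Sh1 had 452 FPKM of Sus1 and 3.81 FPKM of Sus2.

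Lines with closely similar transcriptomes mostly had similar levels of the 3 genes. In the 15 pairs of lines with r above 0.9 over the 1000 most variable genes, the median absolute difference of log2(FPKM + 1) was 0.27 for Sus2, 0.33 for Sh1 and 0.27 for Sus1, against 1.12, 0.67 and 0.65 in the same order across all 50403 pairs. The pairs were chosen by expression, so closer levels are partly built into the choice, and the same difference over other genes was not computed. Some of the pairs share lines. The closest pair, 177 and ZHENG58 (r = 0.991 over those genes), had 46.02 and 44.1 FPKM of Sh1, 140.5 and 141.8 FPKM of Sus1, and 6.73 and 7.05 FPKM of Sus2. Sus2 was also alike in CIMBL47 and CML298 (13.2 and 12.9 FPKM) and in GL178 and the line closest to it (20.2 and 19.04 FPKM). The other 2 of the 5 closest pairs differed more in it. CIMBL66 and CIMBL69 (r = 0.956) had 384 and 461 FPKM of Sus1 but 2.68 and 32.5 FPKM of Sus2. CHANG3 and K10 (r = 0.935) had 25.7 and 10.5 FPKM of Sh1, and 2.00 and 0.314 FPKM of Sus2.

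**Figure D2:**
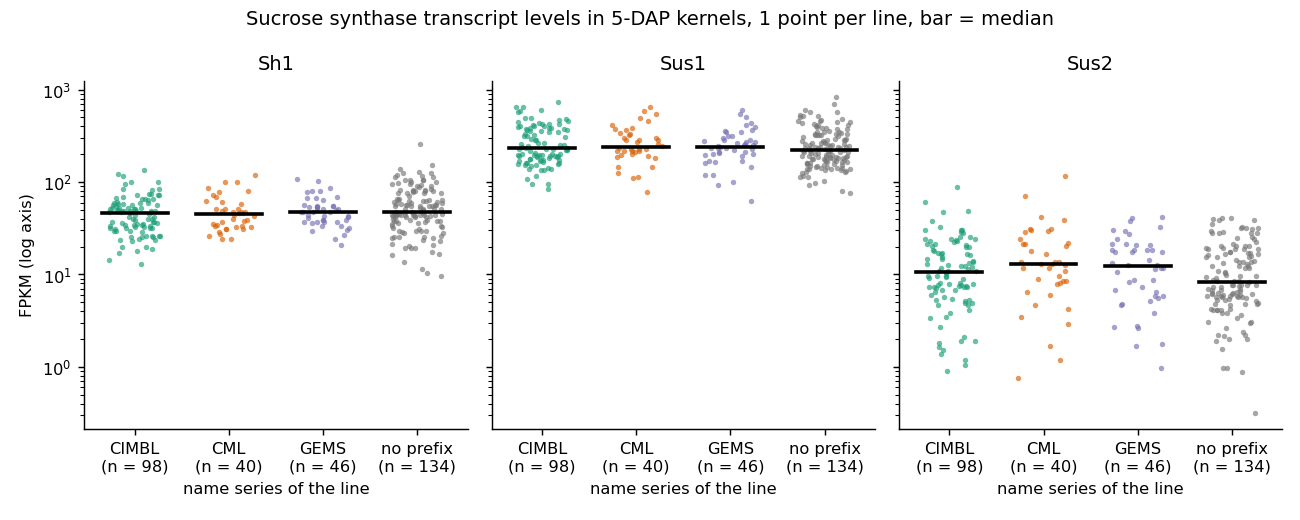
FPKM (log axis) of Sh1, Sus1 and Sus2 in 5-DAP kernels, 1 point per line, by name series (98 CIMBL, 40 CML, 46 GEMS and the no-prefix lines), with a bar at the median. The 4 series overlap almost completely for each gene, Sus1 lies above Sh1 and Sh1 above Sus2, and the points of Sus2 spread between 0.314 and 117.4 FPKM.

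By name series the 3 genes differed little. The 4 series overlapped for each gene, as the plot of FPKM by series shows. For Sh1 the lowest, median and highest FPKM were 12.9, 45.8 and 135 in CIMBL lines, 23.97, 45.2 and 119.05 in CML lines, 20.6, 47.5 and 108.4 in GEMS lines, and 9.71, 47.7 and 258 in no-prefix lines. For Sus1 they were 84.9, 231 and 727 in CIMBL lines, 78.5, 239 and 649 in CML lines, 61.7, 240 and 594 in GEMS lines, and 75.4, 221 and 834 in no-prefix lines. For Sus2 they were 0.894, 10.7 and 89.2 in CIMBL lines, 0.757, 12.97 and 117.4 in CML lines, 0.973, 12.2 and 41.8 in GEMS lines, and 0.314, 8.39 and 41.04 in no-prefix lines. The series accounted for 1.22% of the variance of log2(FPKM + 1) of Sh1, 0.665% for Sus1 and 1.52% for Sus2, against a median of 2.02% over 20482 genes with a median above 1 FPKM.

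Each pair of series was compared with edgeR's quasi-likelihood test on the counts, with Benjamini-Hochberg adjustment over the 26440 genes tested. Of the 18 comparisons (3 genes in 6 contrasts), 2 had an adjusted p under 0.05. Sh1 averaged 47.9 ± 23.5 FPKM in CIMBL lines (SD, n = 98) and 57.4 ± 34.7 FPKM in no-prefix lines (SD), a log2 fold change of -0.25 (SE 0.095, edgeR adjusted p = 0.0369). It was the 1 member of 3 called in that contrast, in which 24.3% of all genes were called and 13.5% were lower. The call was lost without 1 line, the no-prefix line with 258 FPKM of Sh1 (log2 fold change -0.22, edgeR adjusted p = 0.0708), and without the 12 lines with profile r under 0.6 (-0.20, edgeR adjusted p = 0.108). Both small subunit genes of ribulose bisphosphate carboxylase, used as markers of green maternal tissue, were also lower in CIMBL lines, where their summed level ran between 1.27 and 32.15 FPKM (median 10.2), against 3.98 and 43.8 FPKM (median 12.55) in no-prefix lines, and so was the endosperm marker Esr2 (log2 fold change -0.89, edgeR adjusted p = 0.0469). The summed level of the 3 embryo-surrounding endosperm markers ran between 0 and 7.55 FPKM (median 0) in CIMBL lines, against 0 and 23.6 FPKM (median 0.137) in no-prefix lines, with Esr1 and Esr3 at a median of 0 FPKM. The part of these markers in the result was not tested.

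Sus2 averaged 18.98 ± 20.96 FPKM in CML lines (SD, n = 40) and 12.4 ± 9.99 FPKM in no-prefix lines (SD), a log2 fold change of 0.63 (SE 0.21, edgeR adjusted p = 0.0324). It was again the 1 member of 3 called, in a contrast in which 12.9% of all genes were called and 5.62% were higher. The call was lost without CML433, which had 117.4 FPKM of Sus2 and is not in the study's mapping table (log2 fold change 0.43, edgeR adjusted p = 0.179), and also, with CML433 kept, without the 12 lines with profile r under 0.6 (0.55, edgeR adjusted p = 0.083). The medians of 12.97 FPKM in CML lines and 8.39 FPKM in no-prefix lines remain as a description.

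**Figure D3:**
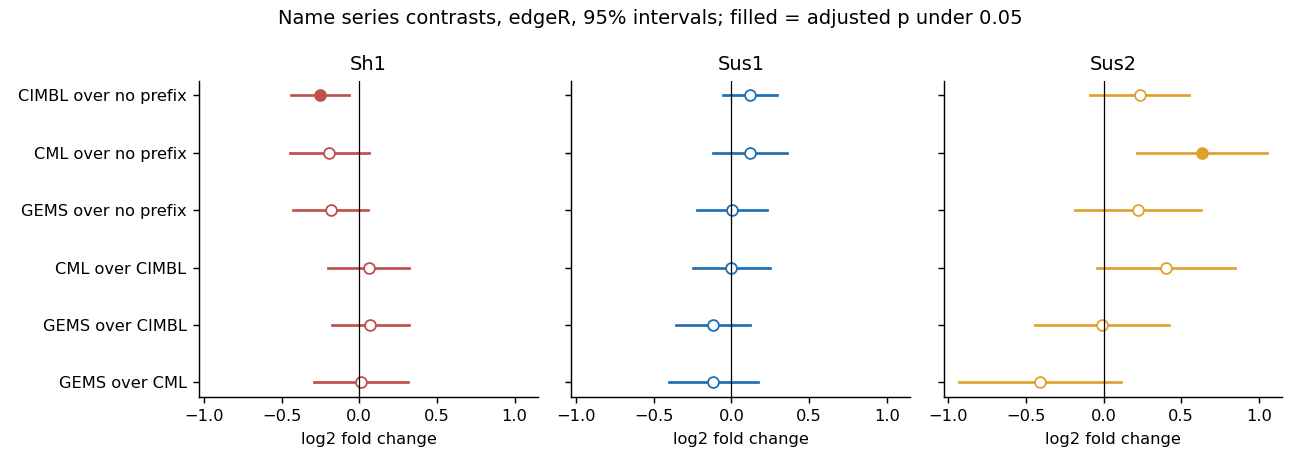
Log2 fold change (x axis) of Sh1, Sus1 and Sus2 in the 6 contrasts between name series, from edgeR, with 95% intervals. Filled points, Sh1 in CIMBL over no prefix (-0.25) and Sus2 in CML over no prefix (0.63), had an adjusted p under 0.05, and all other intervals include 0.

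In the other contrasts none of the 3 genes was called. In GEMS over no-prefix lines, where 4.24% of all genes were called, Sh1 had a log2 fold change of -0.18 (95% interval -0.42 to 0.06), Sus1 of 0.004 (-0.22 to 0.23) and Sus2 of 0.22 (-0.19 to 0.63). In CML over CIMBL lines, where 0.337% were called, Sh1 had 0.06 (-0.20 to 0.32), Sus1 -0.002 (-0.25 to 0.25) and Sus2 0.40 (-0.04 to 0.84), or 0.19 without CML433. In GEMS over CIMBL lines, where 16% were called, the intervals were -0.18 to 0.32 for Sh1, -0.35 to 0.12 for Sus1 and -0.44 to 0.42 for Sus2. In GEMS over CML lines, where 12.2% were called, they were -0.29 to 0.31 for Sh1, -0.40 to 0.17 for Sus1 and -0.93 to 0.11 for Sus2, whose log2 fold change was -0.41, or -0.20 without CML433. The contrasts share series, so they are not independent of each other. In the test for any difference among the 4 series, which called 31.2% of all genes, the edgeR adjusted p was 0.115 for Sh1, 0.598 for Sus1 and 0.0852 for Sus2.

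Of the 21 tested genes in the lists around sucrose synthase, 11 (52.4%) were called in the test for any difference among the 4 series, against 31.2% of all genes, and in that test none of the 3 sucrose synthases was called. Over no-prefix lines, 5 of the 21 were higher and 1 lower in CIMBL lines (10.8% of all genes were called higher there), 3 higher and 3 lower in CML lines (7.3% of all genes lower), and 1 higher and 2 lower in GEMS lines (2.06% of all genes higher and 2.18% lower). The sucrose-phosphate synthase gene Sps1 was higher in CIMBL lines (log2 fold change 0.73, edgeR adjusted p = 6.36e-07) and in CML lines (0.82, edgeR adjusted p = 7.59e-05) than in no-prefix lines. Of the starch genes, the branching enzyme gene Ae1 was higher in CIMBL (0.48), CML (0.44) and GEMS lines (0.50) than in no-prefix lines, the starch synthase gene Du1 in CIMBL (0.51) and CML lines (0.69), and Sh2, the large subunit of ADP-glucose pyrophosphorylase, in CIMBL lines (0.41). The vacuolar invertase gene Ivr1 was higher in CIMBL lines (0.43), while the fructokinase gene Frk2 was lower in CML lines (-0.32) and the sucrose transporter gene Sut1 lower in GEMS lines (-0.54).

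Of the low oxygen genes, the pyruvate decarboxylase gene Pdc2 was lower in CIMBL (-0.77, edgeR adjusted p = 2.87e-05) and CML lines (-0.82, edgeR adjusted p = 0.00454) than in no-prefix lines, and the hemoglobin gene Hb lower in CML (-1.31, edgeR adjusted p = 0.0178) and GEMS lines (-1.29, edgeR adjusted p = 0.0266). Among the prefixed series, Sh2 and Du1 were lower in GEMS lines than in CIMBL lines (-0.80 and -0.38, 7.26% of all genes lower) and than in CML lines (-0.84 and -0.56, 5.05% of all genes lower). Frk2 was higher in GEMS lines than in CIMBL lines (0.33, 8.7% of all genes higher), and Frk2 and Ivr2, another vacuolar invertase gene, were higher in GEMS lines than in CML lines (0.56 and 0.69, 7.12% of all genes higher). In CML over CIMBL lines edgeR called 0 of the 21, with 3 at an unadjusted p under 0.05.

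Among themselves the 3 genes were only weakly correlated across lines. On log2(FPKM + 1), Sh1 and Sus1 had a Pearson's r of 0.230 (permutation p = 3e-05, adjusted p = 9e-05) and a Spearman's rho of 0.2 (permutation p = 0.00025, adjusted p = 0.00075). Sh1 and Sus2 had an r of 0.188 (permutation p = 0.00074, adjusted p = 0.00111) and a rho of 0.133 (permutation p = 0.0168, adjusted p = 0.0252). For Sus1 and Sus2 r was 0.130 (permutation p = 0.0207, adjusted p = 0.0207) and rho 0.116 (permutation p = 0.0394, adjusted p = 0.0394). Permutations were two-sided, and the adjustment was over the 3 pairs. When the 2 lines most distant in the first gene of the pair were left out, r was 0.212, 0.195 and 0.125 in the same order. After the mean of each name series was subtracted, r was 0.241, 0.198 and 0.124.

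Within the series these correlations were uneven. Sh1 and Sus1 were positively correlated in each of them, with r of 0.273 in CIMBL, 0.289 in CML, 0.354 in GEMS and 0.195 in no-prefix lines, and the adjusted p of r was above 0.05 in CML lines (0.106). By rho the adjusted p was above 0.05 also in GEMS (0.116) and no-prefix lines (0.0726), so that CIMBL lines passed by both measures. Sh1 and Sus2 had r of 0.195 in CIMBL, 0.416 in CML, -0.131 in GEMS and 0.226 in no-prefix lines, and passed the test by r in CML and no-prefix lines, with an adjusted p of rho of 0.0774 and 0.0726 there. Sus1 and Sus2 had r of 0.0152, 0.180, 0.255 and 0.145 in the same order of series and passed it in none. Whether the series differ in these correlations was not tested.

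Of the pathway lists examined, low oxygen was the one whose genes were all positively correlated with all 3 sucrose synthases. Permutation tests were run on 72 pairs of a sucrose synthase with one of 24 pathway or marker genes that had a median above 0 FPKM, adjusted over the 72. Alcohol dehydrogenases Adh1 and Adh2 and pyruvate decarboxylases Pdc2 and Pdc3 carry out ethanol fermentation, and Hb encodes a hemoglobin. All 5 of these genes were positively correlated with Sus1 (r between 0.307 and 0.656), all 5 with Sh1 (0.197 to 0.349) and all 5 with Sus2 (0.145 to 0.299), each at an adjusted p under 0.05. The call of Sus2 with Adh2 was lost in the lines of the study's mapping table (r = 0.118, adjusted p = 0.0814) and without the 12 lines with profile r under 0.6 (r = 0.119, adjusted p = 0.0671), which leaves 4 of 5 there. Of all 20481 other genes with a median above 1 FPKM, 23.9% had an r with Sus1 above 0.128, the smallest r called among the 72 pairs, and the share was 20.3% for Sh1 and 16.1% for Sus2. The median r over the 5 genes was 0.426 for Sus1, 0.289 for Sh1 and 0.223 for Sus2, while the median over all genes was -0.0137 for Sus1, -0.00679 for Sh1 and -0.00821 for Sus2.

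**Figure D4:**
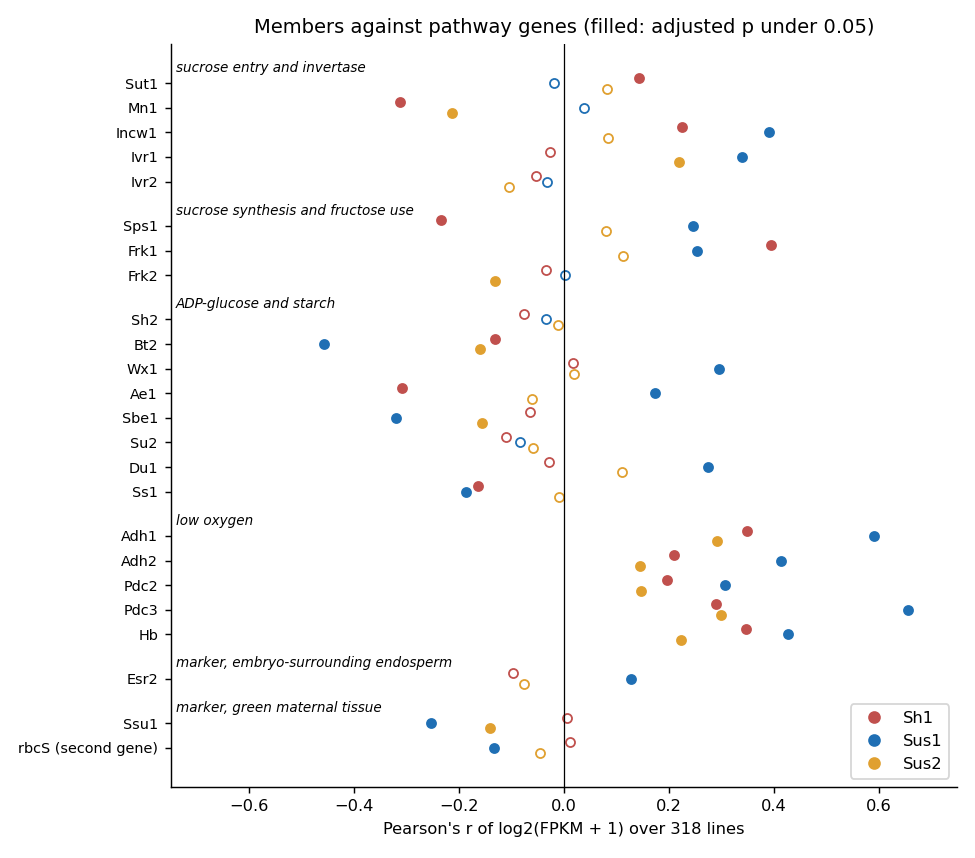
Pearson's r (x axis) of log2(FPKM + 1) over 318 lines between each sucrose synthase (Sh1 red, Sus1 blue, Sus2 yellow) and 24 pathway and marker genes, grouped by list, filled where the permutation p adjusted over 72 pairs is under 0.05. The 5 low oxygen genes lie right of 0 for all 3 sucrose synthases, with Sus1 farthest to the right, whereas the other lists hold genes on both sides of 0.

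Pdc3 was the gene most closely tied to Sus1. Pdc3 ranged between 19.8 and 2726 FPKM with a median of 409 FPKM, and its r with Sus1 was 0.656 (permutation p = 1e-05, the smallest that the permutations can give, adjusted p = 3.43e-05), with a rho of 0.635 (permutation p = 1e-05, adjusted p = 3.6e-05). Adh1, with 100.8 to 2706 FPKM and a median of 421 FPKM, followed with an r of 0.590 (permutation p = 1e-05, adjusted p = 3.43e-05) and a rho of 0.569 (permutation p = 1e-05, adjusted p = 3.6e-05). The relation of Sus1 and Pdc3 was positive in each series, with r of 0.687 in CIMBL, 0.699 in CML, 0.709 in GEMS and 0.625 in no-prefix lines. It was 0.650 when the 2 lines most distant in Sus1 were left out, and 0.655 without the 12 lines with profile r under 0.6. For Sus1 and Adh1, r was 0.630, 0.729, 0.586 and 0.547 in the same order of series, and 0.589 with those 2 lines left out.

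Sh1 and Sus2 followed the low oxygen genes less closely. Sh1 had its highest r among them with Adh1, at 0.349 (permutation p = 1e-05, adjusted p = 3.43e-05; rho 0.313, permutation p = 1e-05), and its lowest with Pdc2, at 0.197 (permutation p = 0.00032, adjusted p = 0.000794; rho 0.191, permutation p = 0.00065). Sh1 and Adh1 had r of 0.355 in CIMBL, 0.534 in CML, 0.142 in GEMS and 0.364 in no-prefix lines. In GEMS lines none of the 5 genes was called with Sh1, with r between -0.0321 and 0.148. Sus2 had its highest r with Pdc3, at 0.299 (permutation p = 1e-05, adjusted p = 3.43e-05; rho 0.292, permutation p = 1e-05), and r of 0.205, 0.422, 0.379 and 0.321 by series in the order above. Within the series the 5 genes were called with Sus2 in no-prefix lines, 2 of them in CML lines, and none in CIMBL (r between -0.0074 and 0.205) or GEMS lines (r between 0.258 and 0.379).

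**Figure D5:**
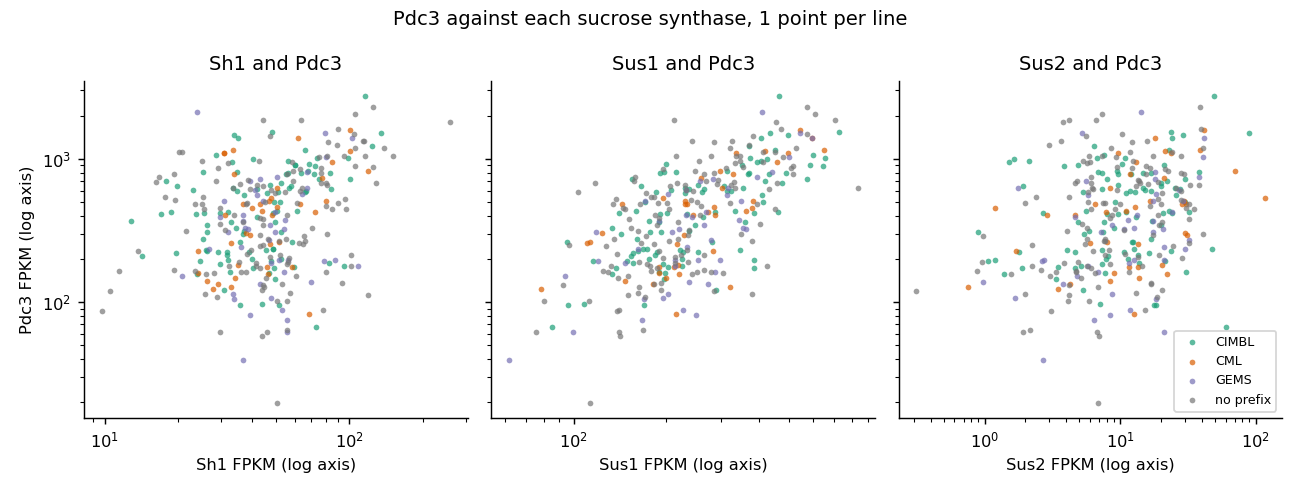
Pdc3 FPKM against FPKM of Sh1, Sus1 and Sus2 (all log axes), 1 point for each of 318 lines, coloured by name series. The cloud rises most steadily for Sus1 (r = 0.656) and is broad for Sh1 (r = 0.289) and Sus2 (r = 0.299), with points of the 4 series mixed.

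How far a line stood from the mean profile moved with Sh1. Profile r correlated with Sh1 at r = -0.320 (permutation p = 1e-05, adjusted p = 6e-05; rho -0.255, permutation p = 3e-05), with -0.272 left once the 2 lines most distant in profile r were removed, and with -0.391, -0.209, -0.429 and -0.283 in CIMBL, CML, GEMS and no-prefix lines. For Sus1 the value was -0.0608 (permutation p = 0.28, rho -0.0344, permutation p = 0.54) and for Sus2 -0.0490 (permutation p = 0.386, rho 0.0227, permutation p = 0.689). By series the value for Sus2 had both signs, with -0.281 in CIMBL, -0.501 in CML, 0.364 in GEMS and 0.0937 in no-prefix lines, which were not tested separately. With the total count, r was 0.0531 for Sh1, -0.0210 for Sus1 and 0.0636 for Sus2, and no p adjusted over these 6 pairs was below 0.463 other than that of Sh1 with profile r. Adh1 also went with a low profile r (r = -0.242). After a linear fit on profile r was removed, Sh1 and the 5 low oxygen genes had r between 0.189 and 0.318, and Sus1 and the 5 had r between 0.304 and 0.655. Sus1, Adh1, Adh2 and Pdc3 are themselves among the 1000 genes that define profile r, while Sh1 and Sus2 are not. Profile r is therefore not independent of Sus1, Adh1, Adh2 and Pdc3, and the fit is no separate control for them.

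In the sucrose entry and invertase list, 5 of 6 genes could be correlated, since the cell wall invertase Incw3 had a median of 0 FPKM. With Sus1, Incw1 (cell wall invertase, median 11.1 FPKM) had an r of 0.390 (permutation p = 1e-05, adjusted p = 3.43e-05; rho 0.377, permutation p = 1e-05) and Ivr1 (vacuolar invertase, median 1.35 FPKM) one of 0.339. With Sh1, Mn1 (Miniature1, the endosperm cell wall invertase, median 39.2 FPKM) had an r of -0.312 (permutation p = 1e-05, adjusted p = 3.43e-05; rho -0.320, permutation p = 1e-05), while Incw1 had 0.224 and the sucrose transporter Sut1 0.143. Sus2 had -0.213 with Mn1 and 0.220 with Ivr1. The r of Mn1 and Sh1 was -0.300 in CIMBL, -0.0554 in CML, -0.140 in GEMS and -0.420 in no-prefix lines. Ivr2, the other vacuolar invertase (median 41.01 FPKM), was called with none of the 3 genes.

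Of the genes of sucrose synthesis and fructose use, Frk1 (fructokinase, median 19.1 FPKM) had an r of 0.394 with Sh1 (permutation p = 1e-05, adjusted p = 3.43e-05; rho 0.320, permutation p = 1e-05) and of 0.254 with Sus1. Sps1, a sucrose-phosphate synthase with a median of 12.0 FPKM, had an r of -0.235 with Sh1 and 0.246 with Sus1. These signs differ between the 2 sucrose synthases, but within CML lines the r of Sus1 and Sps1 was -0.171. Frk2, the more abundant fructokinase (median 248 FPKM), had an r of -0.0345 with Sh1, 0.00193 with Sus1 and -0.131 with Sus2, of which the last was called (adjusted p = 0.0342, permutation p = 0.0195; rho -0.0950, permutation p = 0.0918). That call was lost without the 12 lines with profile r under 0.6 (r = -0.0962, adjusted p = 0.145).

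The ADP-glucose and starch genes were correlated in both directions with Sus1, and negatively wherever they were called with Sh1 or Sus2. The transporter gene Bt1 had a median of 0 FPKM, and the other 8 of the 9 genes were correlated. With Sus1, 6 passed the test, 3 with a positive r (Wx1, granule-bound starch synthase, r = 0.296; Du1, a starch synthase, 0.274; Ae1, a branching enzyme, 0.173) and 3 with a negative r (Bt2, small subunit of ADP-glucose pyrophosphorylase, r = -0.458; Sbe1, a branching enzyme, -0.320; Ss1, a starch synthase, -0.188). Bt2, which varied only between 5.86 and 22.98 FPKM, had the strongest negative value of the 72 pairs (permutation p = 1e-05, adjusted p = 3.43e-05; rho -0.475, permutation p = 1e-05). Its r with Sus1 was -0.523 in CIMBL, -0.526 in CML, -0.234 in GEMS and -0.466 in no-prefix lines, and -0.458 with the 2 lines most distant in Sus1 removed. With Sh1, Ae1 (r = -0.310), Ss1 (-0.164) and Bt2 (-0.132) passed the test with a negative r and none with a positive r, and with Sus2, Bt2 (-0.160) and Sbe1 (-0.157) passed it with a negative r and none with a positive r. Sh2, the large subunit partner of Bt2 (median 0.755 FPKM), was called with none of the 3. Of all genes with a median above 1 FPKM, 26% had an r below -0.128 with Sus1, 20.5% with Sh1 and 13.9% with Sus2.

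Of the cell type markers that could be correlated, both green tissue genes were negatively and Esr2 positively correlated with Sus1. Ssu1 (median 1.81 FPKM) had an r of -0.254 with Sus1 (permutation p = 1e-05, adjusted p = 3.43e-05; rho -0.263, permutation p = 1e-05) and the second small subunit gene (median 9.41 FPKM) one of -0.134 (permutation p = 0.0169, adjusted p = 0.0312; rho -0.141, permutation p = 0.0113). The call of the second gene was lost in the lines of the study's mapping table (r = -0.0952, adjusted p = 0.167) and after the series means were subtracted (r = -0.122, adjusted p = 0.0512). In GEMS lines these values were 0.0314 and 0.0912. The summed level of both genes ranged between 1.27 and 43.8 FPKM over the lines (median 11.4). Sus2 had an r of -0.142 with Ssu1, and Sh1 had 0.00561. The part of green maternal tissue in the other correlations of Sus1 was not tested. Esr2, at 0 reads in 154 lines, had an r of 0.128 with Sus1 (adjusted p = 0.0409).

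Over all 20481 other genes with a median above 1 FPKM, Sus1 had clear companions in its pattern, and Sh1 and Sus2 had none above a rho of 0.5. By Spearman's rho of FPKM over 318 lines, given as a description, 65 genes exceeded 0.5 with Sus1 and 5 were below -0.5. The 5 most like Sus1 were Pdc3 (rho 0.635), AC197705.4_FG001 (0.622), GRMZM2G057823, named aldolase1 in RefSeq (0.620), GRMZM2G066024, named aldolase2 (0.611), and GRMZM2G402804 (0.601). Aldolase is an enzyme of glycolysis, and both aldolase genes were abundant, with medians of 836 and 513 FPKM. For Sh1 the 5 were GRMZM2G527891, named TPS4 in RefSeq (0.477), AC233870.1_FG003 (0.468), GRMZM2G127379 (0.463), GRMZM2G128160 (0.462) and GRMZM5G822098 (0.461). For Sus2 they were GRMZM2G063679 (0.439), GRMZM2G073567 (0.421), GRMZM2G062412 (0.419), GRMZM2G006297 (0.415) and AC217947.4_FG002 (0.412). In the order of rho with Sh1, Sus1 was number 1895 and Sus2 number 3745, so that the members were not each other's nearest genes in pattern.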

How the data were processed

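The authors cleaned paired-end reads of 125 bp, kept those longer than 50 bp, mapped them to B73 AGPv3 with TopHat2 as unstranded libraries and counted unique alignments on annotated genes (Ensembl release 27). The deposited count table holds these whole-number counts, not normalized, and the deposited FPKM table was computed by the authors from DESeq2-normalized counts. Versions are not given in the sources used here. Because unique alignments were kept, reads from stretches that the sucrose synthase genes share with each other or with other copies can be missing, and levels may be too low there.

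Both tables hold 39625 genes and 318 lines, and 0 columns were left unused. Lines were grouped by the prefix of their name, which is the only grouping the labels give. Counts were tested with edgeR 4.0.16 in R 4.3.3 (TMM, filterByExpr by series, quasi-likelihood test, threshold 0.05), in 1 fit of 4 series, with SE taken as the absolute log2 fold change over the square root of F and 95% intervals as 1.96 SE. Relatedness between lines was not modelled, so that p-values treat lines as independent. Correlations used log2(FPKM + 1) and 100000 two-sided permutations, with the smallest possible p at 1e-05, and Benjamini-Hochberg adjustment over the 3, 72 or 6 pairs of each family. Genes of similar level have a mean FPKM within 0.5 of the member on the log2 scale and a median above 1 FPKM. Intervals on single values are exact Poisson and cover counting error only. Computations used Python 3.11.15, numpy 2.4.6, pandas 2.3.3, scipy 1.17.1 and matplotlib 3.10.9. The tests were tried on simulated data.

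Alternatives were DESeq2 1.42.0, limma 3.58.1 on log2(FPKM + 1) and log2(FPKM + 0.1), DESeq2 size factors in edgeR, no filter, only the lines of the study's mapping table, leaving out the 12 lines with profile r under 0.6, and keeping 304 lines with 1 of each near-identical group (r above 0.9). Leaving out CML433 or the line with the highest Sh1, and for the pathway genes the 12 lines, the 2 farthest lines or a fit on profile r, was added after the data had been seen.

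The 3 genes and the gene lists were chosen with earlier results of these data known. Named genes are the members, the highest and lowest correlated gene of each list for each member, and the 5 genes most alike in Spearman's rho among those with a median above 1 FPKM. Other list genes, and the remaining extreme lines, were named after their values were seen. Names come from a RefSeq table of Zm-B73-REFERENCE-NAM-5.0, another build, which matched 19060 identifiers and all 3 members, and no coordinates or sequences were taken from it. List entries that it does not pair with an identifier were left out, which leaves 32 list genes.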

Additional observations from a re-analysis of the deposited data

How the results depend on the processing

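No paired analysis was possible because the labels give no replicate numbers and each line is 1 library. Of the 2 calls between name series, both were lost under several alternatives. The log2 fold change of Sh1 in CIMBL over no-prefix lines was -0.23 in the lines of the study's mapping table (the listed lines), -0.20 without the 12 lines with low profile r, -0.22 without the line with the highest Sh1, and -0.18 and -0.19 with limma at pseudocounts 1 and 0.1. That of Sus2 in CML over no-prefix lines was 0.46, 0.55, 0.43 (without CML433), 0.43 and 0.46. Values near 0 changed sign without passing the test: Sus1 in GEMS over no-prefix lines (-0.049 in the listed lines, -0.0050 without the 12), Sus1 in CML over CIMBL lines (0.040 in the listed lines, 0.051 with 1 line of each near-identical group, 0.0093 without CML433, 0.0039 and 0.0039 with limma), Sh1 in GEMS over CIMBL (-0.037) and over CML lines (-0.11) in the listed lines, and Sus2 in GEMS over CIMBL lines (0.0097 with DESeq2 size factors, 0.0099 with DESeq2, 0.052 without the 12, 0.065 and 0.075 with limma).

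The number of genes called moved by over 1.5 times without the filter on low counts, to 5711 (CML over no prefix, main 3417), 2888 (GEMS over no prefix, main 1121), 1001 (CML over CIMBL, main 89), 6440 (GEMS over CIMBL, main 4220) and 5156 (GEMS over CML, main 3218). It was 1686 for GEMS over no prefix in the listed lines, and 1 for CML over CIMBL with limma at either pseudocount.

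Within series, with fewer lines, r missed the threshold for Sh1 and Sus1 in CML (0.289), for Sh1 and Sus2 in CIMBL (0.195), and for Sus1 and Sus2 in CIMBL (0.0152), CML (0.180), GEMS (0.255) and no-prefix lines (0.145), and for Sh1 and Sus2 it was negative in GEMS (-0.131). For pathway and marker genes, 32 of the called correlations were followed. They were those with the low oxygen genes and with the gene of highest or lowest rho in each list. The other called correlations were not counted. Within each of the 4 series, 63 values missed the threshold, 7 changed sign and 58 did neither. In the other alternatives 5 of 224 values missed it. There, values without the 2 farthest lines were held to an unadjusted permutation p, a looser threshold. Signs turned within a series for Sh1 with Adh2 (-0.0158) and Pdc2 (-0.0321) in GEMS, Sus1 with Sps1 in CML (-0.171), Sus1 with Ssu1 (0.0314) and the second small subunit gene (0.0912) in GEMS, and Sus2 with Sbe1 (0.012) and Adh2 (-0.0074) in CIMBL. The causes were not tested. Medians, shares and CVs of the 3 genes kept within the spread across lines or 1.5 times in the 3 alternatives run. For Sus2, a line with 19 reads limits the lowest values to the interval given.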
